A study of Mus musculus with 2 samples.

Results

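Complement in these tumours was followed through 9 genes of the 27998 counted: the C1q chains C1qa, C1qb and C1qc, the central component C3, the alternative-pathway genes Cfb and Cfp, the C1 inhibitor gene Serping1, and the anaphylatoxin receptor genes C3ar1 and C5ar1. They were taken by symbol, with earlier results of these data known, and all 9 had a row in both count tables. The cells were leukocytes, enriched with magnetic beads against CD45, from tumours that the mammary adenocarcinoma line TSA formed under the skin of Balb/c mice. The untreated group and the group whose drinking water held 0.5% nicotinamide (NAM, a form of vitamin B3) for 10 days gave 1 library each, pooled from the tumours of 3 mice. With 1 library per group no test was possible: a difference between the libraries has no replicate check, and the treatment cannot be told apart from any other difference between the 2 pools. All intervals below are exact 95% intervals that cover counting error only.

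Complement is a set of plasma and locally made proteins that tag cells and debris for uptake and call in leukocytes. C1q, built from 3 chains, opens the classical pathway by binding antibody, dying cells and other surfaces, and macrophages are a main source of it in tissues, tumours included. Classical and alternative routes meet at C3. Factor B (Cfb) supplies the enzyme of the alternative C3 convertase, properdin (Cfp) holds that convertase together, and C1 inhibitor (Serping1) shuts down C1r and C1s. The cleavage fragments C3a and C5a act on leukocytes through C3aR (C3ar1) and C5aR1 (C5ar1).

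The untreated library held 2922 cells and 29161823 UMIs (counted RNA molecules), and the NAM library 3276 cells and 32090120 UMIs, with medians of 9056 and 9128 UMIs per cell. Of the barcodes, 11 occurred in both libraries. Values are given for 13 gates, set by UMIs of marker genes that included no complement gene: 6 macrophage gates named for their marker genes, Ly6c2 monocytes, 3 dendritic gates, 2 T cell gates and NK cells. Macrophages made up most of both libraries (2281 of 2922 and 2515 of 3276 cells). There were 190 and 223 Ly6c2 monocytes, 81 and 87 dendritic cells, 195 and 253 T cells, and 70 and 39 NK cells, the untreated library first here and throughout. Another 105 and 159 cells fell in no gate. Check markers that the gates did not use were higher in their own type than in the other gated cells for all 7 types checked, although only 2 of the 4 T cell check markers had a row in the files. Not all were highest in their own gate: this held for 2 of 4 markers in each of NK cells, Cd209a dendritic cells and Ly6c2 monocytes. The NK markers summed to more in CD8 T cells (4040 and 4600 CPM) than in NK cells (2913 and 3533), and the monocyte markers to more in NK cells (283) than in Ly6c2 monocytes (217) of the NAM library.

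In GRCm38 (GENCODE vM21) all 9 are protein-coding genes on the reverse strand. The C1q genes lie side by side on chromosome 4: C1qb at chr4:136880129-136886187, C1qc at chr4:136889804-136893065 and C1qa at chr4:136895917-136898803. C3 is at chr17:57203970-57228136 and Cfb at chr17:34856374-34862518. C3ar1 is at chr6:122847138-122856161, C5ar1 at chr7:16246743-16259540, Cfp at chrX:20925454-20931555 and Serping1 at chr2:84765387-84775444. RefSeq promoter windows of GRCm38.p6, 250 bases before to 50 after a gene's start, were at hand for 6 of the 9. Those of C1qb and C1qc are shown because their levels moved together in what follows, and that of C3 because it moved apart from them. Each reads 5′ to 3′ along the gene, from chr4:136886151-136886450, chr4:136892865-136893164 and chr17:57228087-57228386 (reverse strand).
C1qb: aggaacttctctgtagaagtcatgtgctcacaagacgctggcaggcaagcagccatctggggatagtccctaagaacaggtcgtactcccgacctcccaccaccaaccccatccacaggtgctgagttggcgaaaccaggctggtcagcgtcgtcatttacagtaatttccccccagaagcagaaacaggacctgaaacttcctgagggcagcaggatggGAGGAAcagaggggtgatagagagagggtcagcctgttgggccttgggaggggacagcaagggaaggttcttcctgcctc
C1qc: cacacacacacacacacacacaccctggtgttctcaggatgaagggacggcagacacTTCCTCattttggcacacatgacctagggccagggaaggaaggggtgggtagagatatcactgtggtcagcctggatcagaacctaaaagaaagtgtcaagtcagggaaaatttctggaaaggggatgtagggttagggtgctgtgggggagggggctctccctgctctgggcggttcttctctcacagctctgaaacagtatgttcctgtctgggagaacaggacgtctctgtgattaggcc
C3: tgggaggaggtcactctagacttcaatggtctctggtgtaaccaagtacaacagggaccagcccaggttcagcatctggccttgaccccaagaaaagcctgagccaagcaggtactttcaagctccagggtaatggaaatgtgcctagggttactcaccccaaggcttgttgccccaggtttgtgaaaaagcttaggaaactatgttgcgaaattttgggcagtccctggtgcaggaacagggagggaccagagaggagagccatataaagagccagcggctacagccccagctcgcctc

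Capitals mark every match, on either strand, to GAGGAA or TTCNNNGAA. GAGGAA, a core bound by ETS factors such as PU.1, was in the windows of C1qb, C1qc and Cfp, and in 28.3% of all 32851 windows. None of the 6 windows held TTCNNNGAA, the letters of a gamma-activated site, which were in 8.30% of all windows. The C3 window held neither. Other letters were also searched for, among them ETS-IRF composite and interferon-stimulated sites, and their matches are not given. The letters were chosen with the windows in view, TTCNNNGAA reads the same on both strands, and a match is a description of the reference sequence (a C57BL/6J genome, where these mice were Balb/c), not a site.

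C1q RNA was found mainly in macrophages. Over both libraries 323350 UMIs of C1qa, 248021 of C1qb and 235205 of C1qc were counted. In Vcam1 Dnase1l3 macrophages, the gate with the highest level of all 3 chains, C1qa stood at 8023 CPM (UMIs scaled to 1000000 per gate and library) in untreated and 8923 in NAM mice. C1qb stood at 6022 and 6900 CPM there, and C1qc at 5857 and 6603 CPM. Nearly every cell of that gate carried C1q RNA: with each cell thinned to 3000 UMIs, 99.8% and 99.6% had a C1qa UMI. The lowest macrophage gate for all 3 was the Ctsk Acp5 one, cells with the protease cathepsin K and tartrate-resistant phosphatase genes of osteoclasts, where C1qa was at 352 and 281 CPM. The gap between these 2 gates was 22.8-fold and 31.8-fold for C1qa, 26.3-fold and 25.6-fold for C1qb, and 29.0-fold and 26.7-fold for C1qc.

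Between these ends lay the other macrophage gates. The mean of the 2 libraries' C1qa levels was 6739 CPM in the remaining macrophages, 6312 in interferon-high (Rsad2 Ifit3), 5411 in proliferating and 5103 in Tgfbi Htra3 macrophages. The values of the 2 libraries overlapped between the remaining and the interferon-high gates, and those of the Tgfbi Htra3 gate overlapped with those of the proliferating gate, so the order within these pairs is not settled. Ly6c2 monocytes followed at 1303 CPM, with library values that lay apart from those of their neighbours.

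A low level of C1q reads was present in every cell type. T cells, which do not make C1q, held C1qa at 193 and 192 CPM, which is 3.33% and 3.05% of the macrophage level, and C1qb and C1qc lay at 3.02% to 3.61% of theirs. The 3 chains kept nearly the macrophage proportions in T cells: C1qa was 41.9% and 36.9% of their C1q UMIs, against 40.7% and 39.6% in macrophages. Thinned to 3000 UMIs, 39.5% and 43.9% of T cells had a C1qa UMI, at median depths of 4495 and 4325 UMIs, against 92.2% and 91.6% of macrophages, at 9961 and 9995. These shares are read here as the background of free RNA in the droplets. They include 1 NAM CD8 T cell, and 1 CD8-negative T cell in each library, with 15 or more C1q UMIs out of 3000. Doublets were not told apart from free RNA. The T cell gates allowed at most 3 UMIs of the myeloid marker panel, so T cells richer in such RNA are not among them. cDC1, the Xcr1 Clec9a dendritic cells, were at or under the T cell level with 114 and 113 CPM of C1qa, at median depths of 16662 and 16069 UMIs. In Ctsk Acp5 macrophages 48.5% and 41.8% of cells had a C1qa UMI after thinning, close to the T cell share. Their median depths were 17048 and 16442 UMIs. At deposited depth 91.3% and 89.3% of Ctsk Acp5 macrophages and 88% and 75.9% of cDC1 had one, against 57.4% and 55.7% of T cells. How much of this is free RNA was not tested.

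**Figure D1:**
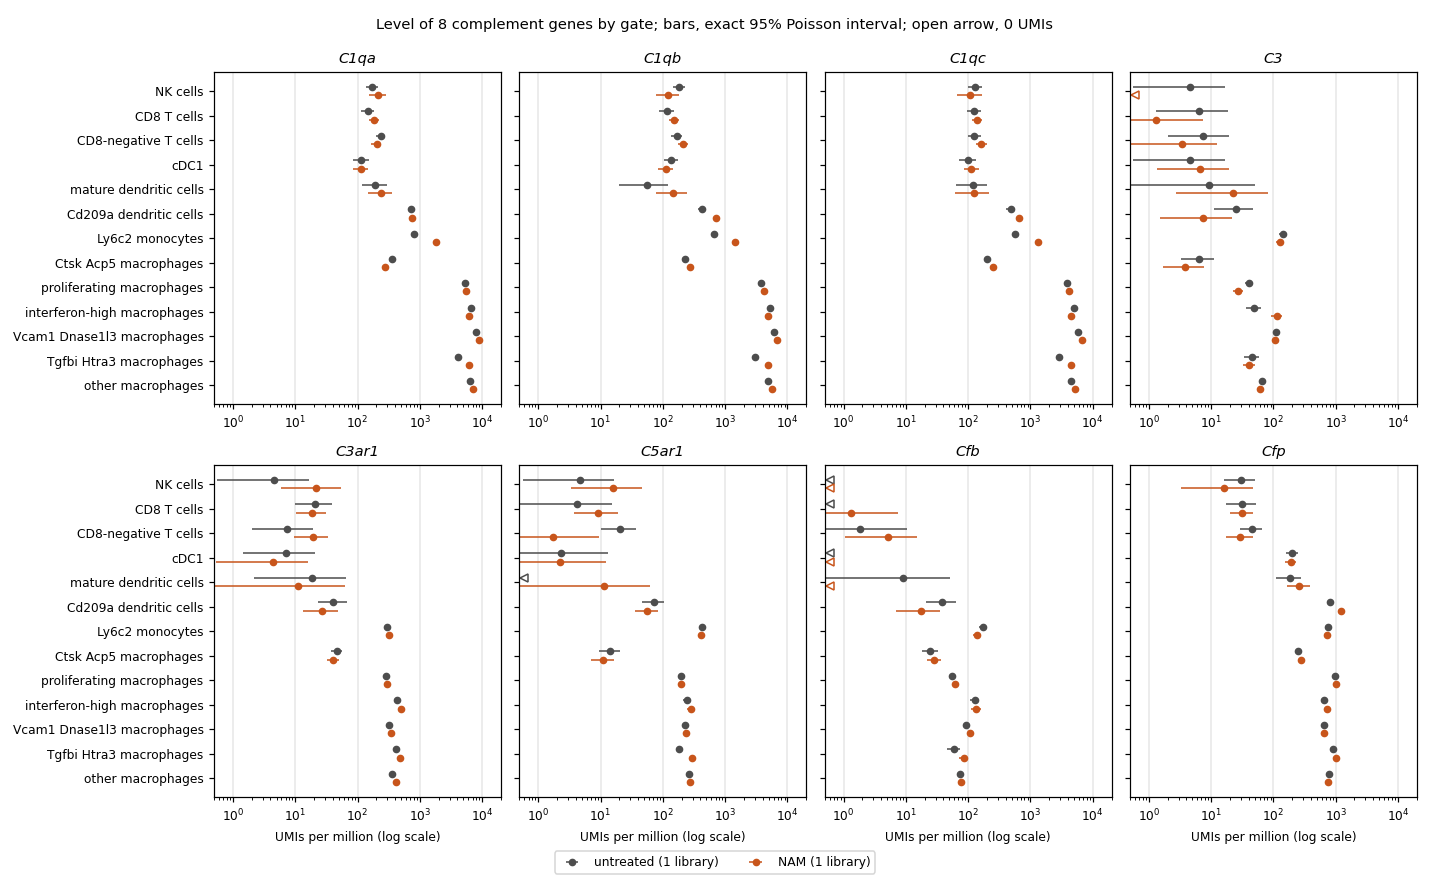
Level of 8 of the 9 genes (not Serping1) in CPM (log axis) for the 13 gates, grey for the untreated and orange for the NAM library, with exact 95% Poisson intervals and open arrows where no UMI was counted. Each of the 8 genes plotted is lowest among the macrophage gates in the Ctsk Acp5 gate, and the C1q chains sit at 107 to 236 CPM in T and NK cells.

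Taken over all macrophages, the 2 libraries differed by less than 1.5-fold in each of the 8 members with enough UMIs. C1qa was at 5808 and 6288 CPM (log2 ratio of NAM to untreated 0.11, 0.10 to 0.12), C1qb at 4324 and 4928 (0.19, 0.18 to 0.20) and C1qc at 4141 and 4644 (0.17, 0.15 to 0.18). Of the 8 members with 100 or more UMIs, 0 were past 1.5-fold in either direction, where 0.977% of 10130 genes were past it upward and 3.63% downward. The members' median log2 ratio was 0.14 and that of all genes -0.03, and 7 of the 8 were above 0. In Vcam1 Dnase1l3 macrophages the median cell moved with the sum: its C1q chains together made 19824 and 22779 CPM.

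In Ly6c2 monocytes all 3 C1q chains were past 1.5-fold, with all cells at their deposited depth. C1qa was at 806 CPM in untreated and 1799 CPM in NAM mice (log2 ratio 1.16, 1.06 to 1.26). C1qb was at 662 and 1425 CPM (1.11, 0.99 to 1.22), and C1qc at 555 and 1317 CPM (1.25, 1.13 to 1.37). These 3 were the members past 1.5-fold there, of 8 with enough UMIs, while 3.62% of 3230 genes were higher past it and 6.47% lower. The other 5 members kept within 1.5-fold, from -0.32 for Cfb to 0.11 for C3ar1.

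Single cells show what the sums hold. The median monocyte had nearly the same C1q level in both libraries, 535 and 586 CPM for the 3 chains together, against medians of 348 to 418 CPM in the T cell gates. More NAM cells lay in a tail with macrophage-range C1q. Cells at 15 or more C1q UMIs out of 3000 were 17 of 190 (8.95%, 5.30 to 13.9) in untreated and 52 of 223 (23.3%, 17.9 to 29.4) in NAM mice. At 16000 CPM or more there were 0 untreated and 11 NAM monocytes. The cutoff was set after the values were seen, and 18 and 9 cells lay between 10 and 19 of 3000 UMIs, so it is a point on a range and not the border of a named cell type. With 10 or more UMIs the shares were 15.3% and 24.2%, and with 30 or more 5.26% and 13.5%.

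The C1q-high cells of the gate differed from the rest in more than C1q. In the NAM library their level of Apoe, the apolipoprotein E gene of macrophages, was 11403 CPM against 4477 in the other monocytes, and that of Ms4a7, a membrane protein gene of macrophages, was 1484 against 546. Ly6c2 itself was at 1795 against 4261 CPM, and Plac8, another gene of classical monocytes, at 1395 against 4061. Of the 5 macrophage check markers 4 were higher in the C1q-high cells in both libraries. For Mertk, 1 of these, this rests on very few UMIs (5.57 against 3.31 CPM, and 7.77 against 1.97 in NAM). Fcgr1 was lower (529 against 704 CPM, and 565 against 732 in NAM), as was the panel gene Cd68 in the NAM library (645 against 825). The untreated library had the same order for Apoe, Ms4a7, Ly6c2 and Plac8, with Apoe at 8639 against 4133 CPM and Ly6c2 at 2132 against 3927. The C1q-high cells were also deeper, with median UMIs of 8664 against 5918 (untreated) and 9243 against 5462 (NAM). Across the whole gate the 5 macrophage check markers summed to 6608 and 8511 CPM and the 4 monocyte ones to 212 and 217. Whether macrophage content or doublets have a part in the C1q difference was not tested.

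With a narrower gate, 15 or more Ly6c2 UMIs and a Plac8 UMI, chosen after these values were seen, 112 and 118 monocytes remained. C1qa was then at 775 and 1254 CPM (log2 ratio 0.69, 0.55 to 0.84), C1qb at 589 and 982 (0.74) and C1qc at 499.6 and 931 (0.90), and 7.14% and 16.1% of cells passed the C1q cutoff. With each cell thinned to 3000 UMIs before gating, which left 119 and 125 monocytes, the ratios were 0.28 for C1qa, 0.56 for C1qb and 0.40 for C1qc, so that 0 of the 3 were past 1.5-fold.

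**Figure D2:**
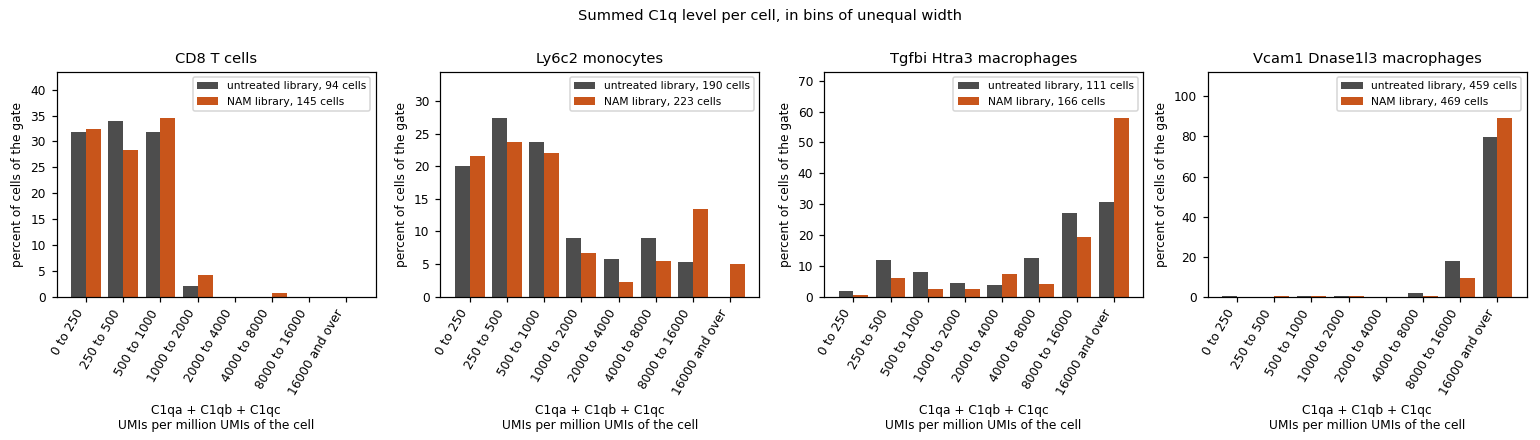
Share of cells of 4 gates (percent, vertical axis) by the summed level of C1qa, C1qb and C1qc in each cell (CPM of the cell, bins of unequal width), grey for untreated and orange for NAM. Monocytes fall in a low group that overlaps CD8 T cells and a high tail, which reaches 16000 CPM and over in 0 untreated and 11 NAM cells.

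Of the 6 macrophage gates, the Tgfbi Htra3 one had C1q past 1.5-fold. C1qb was at 2988 and 4800 CPM (log2 ratio 0.68, 0.63 to 0.74) and C1qc at 2825 and 4522 (0.68, 0.62 to 0.74). C1qa, at 4145 and 6060 CPM, was just short of it (0.55, 0.50 to 0.60). With C5ar1, 3 of 8 members were higher past 1.5-fold in this gate, where 4.05% of 3457 genes were. With thresholds raised by 1 UMI, which left 30 and 57 cells, C1qb was at 0.51, under 1.5-fold, while C1qc (0.67) and C5ar1 (0.89) stayed past it. With thinning, which left 10 and 17 cells, C1qb was at 0.54 and C1qc at 0.40, both under it, C1qa at 0.64, past it, and C5ar1 had too few UMIs. Here the median cell moved too, from 10032 to 17887 CPM of summed C1q, and cells past the C1q cutoff were 67.6% of 111 and 81.3% of 166. The macrophage check markers of the gate moved with it, from 8145 to 11302 CPM in sum, and their part in the result was not tested.

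Interferon-high macrophages went slightly the other way, with C1qc at 4948 and 4407 CPM (log2 ratio -0.17, -0.23 to -0.11) and ratios of -0.11 for C1qa and -0.10 for C1qb. In the Ctsk Acp5 gate the chains parted: C1qa was at 352 and 281 CPM (-0.33, -0.49 to -0.17), C1qb at 229 and 270 (0.24, 0.05 to 0.42) and C1qc at 202 and 247 (0.29, 0.10 to 0.49). C1qa was 45.0% of that gate's C1q UMIs in untreated and 35.2% in NAM mice. These levels are not far above those of T cells (193 and 192 CPM of C1qa), and once the 5 cells richest in C1qb were dropped from each library its ratio turned to -0.11.

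Among dendritic cells C1q rested on few cells. In Cd209a dendritic cells, 44 in each library, C1qb was at 425 and 711 CPM (log2 ratio 0.74, 0.46 to 1.03), and 5 cells held 59.4% and 82.7% of its UMIs. Cells past the C1q cutoff were 6 and 2. Once the 5 cells richest in C1qb were dropped from each library the ratio was -0.29, so its direction is that of those cells. Over all dendritic cells 1 of 4 members, C1qb, was higher past 1.5-fold (0.62), where 4.42% of 2195 genes were. That ratio turned to -0.12 with cells thinned before gating, -0.64 without the deepest 2.5% of cells and -0.15 without its top 5 cells, and was 0.57, under 1.5-fold, with median-of-ratios scaling. In the Cd209a gate it was 2 of 4, C1qb and Cfp, where 3.82% of 1047 genes were.

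C3, the component on which all routes meet, was sparsely counted, with 3602 UMIs over both libraries. Its highest gate was Ly6c2 monocytes, at 144 and 126 CPM (log2 ratio -0.19, -0.48 to 0.10), ahead of Vcam1 Dnase1l3 macrophages at 112 and 106. In the narrower monocyte gate C3 was at 144 and 96.9 CPM (-0.57, -1.01 to -0.13), which put the NAM level under that of the Vcam1 Dnase1l3 gate. Thinned to 3000 UMIs, 28.4% and 29.6% of monocytes had a C3 UMI, against 2.56% and 0.395% of T cells, at median depths of 6229 and 5962 against 4495 and 4325. Over all macrophages C3 was at 60.6 and 58.3 CPM (-0.06, -0.16 to 0.05). Its ratio turned sign between gates. In interferon-high macrophages it was at 48.8 and 113 CPM (1.21, 0.72 to 1.72), the 1 of 8 members higher past 1.5-fold there, where 3.88% of 2394 genes were. In proliferating macrophages it was at 41.1 and 27.2 CPM (-0.59, -0.95 to -0.25), the 1 of 8 lower past it, where 3.18% of 6488 genes were. The first rests on few cells: 5 of the 76 NAM cells held 55.4% of their C3 UMIs, and without the 5 highest cells of each library the ratio was 0.49 (-0.16 to 1.15). Treated the same way the proliferating ratio was -0.50 (-0.90 to -0.11), and with thresholds raised by 1 UMI it was -0.52, so neither call stayed past 1.5-fold without its top cells.

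The alternative-pathway genes had unlike patterns. Cfb, which makes factor B, was like C3 highest in Ly6c2 monocytes, at 172 and 138 CPM (log2 ratio -0.32, -0.59 to -0.05), and next in interferon-high macrophages, at 128 and 133. T cells held 1 and 4 UMIs of Cfb in all. Against the macrophage level this was 1.45% and 4.03%, where C1qa in T cells was at 3.33% and 3.05%. The cDC1 and NK gates held 0 in both libraries. With 3 counts as the limit this allows up to 6.99 and 6.66 CPM in cDC1, and 6.95 and 16.0 CPM in NK cells. Over all macrophages Cfb was at 67.9 and 74.2 CPM (0.13, 0.03 to 0.22). Its highest ratio was in Tgfbi Htra3 macrophages, at 58.8 and 84.7 CPM (0.53, 0.12 to 0.95), under 1.5-fold.

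Cfp, the properdin gene, was the most even of the 8 members across the 6 macrophage gates. It ran from 244 and 275 CPM in Ctsk Acp5 to 957 and 1017 in proliferating macrophages, a gap of 3.92-fold and 3.70-fold where that of C5ar1 was 18.3-fold and 26.8-fold. It was also counted in dendritic cells above the background. In Cd209a dendritic cells Cfp was at 819 and 1237 CPM (log2 ratio 0.59, 0.39 to 0.81), just past 1.5-fold. It was under it with median-of-ratios scaling (0.57) or thresholds raised by 1 UMI (0.58). Unlike C1qb it did not hang on the top cells: without the 5 highest of each library the ratio was 0.68. Cells with a Cfp UMI were 68.2% and 88.6% of the gate, against 9.23% and 6.72% of T cells, at median depths of 7405 and 9001 against 4495 and 4325 UMIs. With each cell thinned before gating, which left 33 and 26 cells, the ratio was 0.20 (-0.28 to 0.67). The Cd209a gate also held macrophage RNA. Its 5 macrophage check markers summed to 3213 and 2899 CPM, against 613 and 559 in cDC1 and 16267 and 15396 in all macrophages. The part of that RNA in the Cfp level was not tested. cDC1 held Cfp at 198 and 189 CPM, above the 38.4 and 30.6 CPM of T cells. Over all macrophages it was at 747 and 775 CPM (0.05, 0.02 to 0.08) and in Ly6c2 monocytes at 752 and 721 (-0.06, -0.18 to 0.06).

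Serping1, the gene of C1 inhibitor, was barely counted: 15 UMIs in 6198 cells, of which macrophages held 8 and 6 and Ly6c2 monocytes 1 in the untreated library. T, NK and dendritic cells held 0 in both libraries. No ratio is given for it.

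The anaphylatoxin receptors were highest in monocytes and macrophages. Of the 13 gates, C3ar1 was highest in interferon-high (435 and 497 CPM) and Tgfbi Htra3 macrophages (421 and 473), whose values overlapped between libraries, and lowest among macrophages in the Ctsk Acp5 gate (46.2 and 40.5). It was 328 and 368 CPM over all macrophages (log2 ratio 0.17, 0.12 to 0.21), and the ratio was above 0 in 5 of the 6 macrophage gates, from 0.05 in proliferating to 0.19 (0.0032 to 0.38) in interferon-high macrophages. In Ly6c2 monocytes it was 300.1 and 324 CPM (0.11, -0.08 to 0.30). Dendritic cells, at 22.1 and 14.8 CPM, were near the 13.8 and 18.7 of T cells.

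C5ar1 was at 418 and 403 CPM in Ly6c2 monocytes (log2 ratio -0.05, -0.22 to 0.11), and the ratio was -0.31 (-0.53 to -0.09) in the narrower monocyte gate. It was lower in the remaining macrophages, at 263 and 275, whose values overlapped with those of interferon-high (242 and 280) and Tgfbi Htra3 macrophages. In the Ctsk Acp5 gate it fell to 14.3 and 11.1 CPM, within the intervals of T cells (12.8 and 5.97 CPM). Cd209a dendritic cells lay above both, at 71.2 and 56.5 CPM (26 and 23 UMIs, of which 5 cells held 65.4% and 78.3%), and 25% and 13.6% of them had a C5ar1 UMI after thinning. Past 1.5-fold were Tgfbi Htra3 macrophages, at 184 and 297 CPM (0.69, 0.47 to 0.92), where 35.1% and 49.4% of cells had a C5ar1 UMI after thinning. T cells had one in 3.59% and 1.98%, at median depths of 4495 and 4325 against 10996 and 10490 UMIs. Within the Ly6c2 gate it ran against C1q: the C1q-high cells had C5ar1 at 217 and 251 CPM, the others at 448 and 481.

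**Figure D3:**
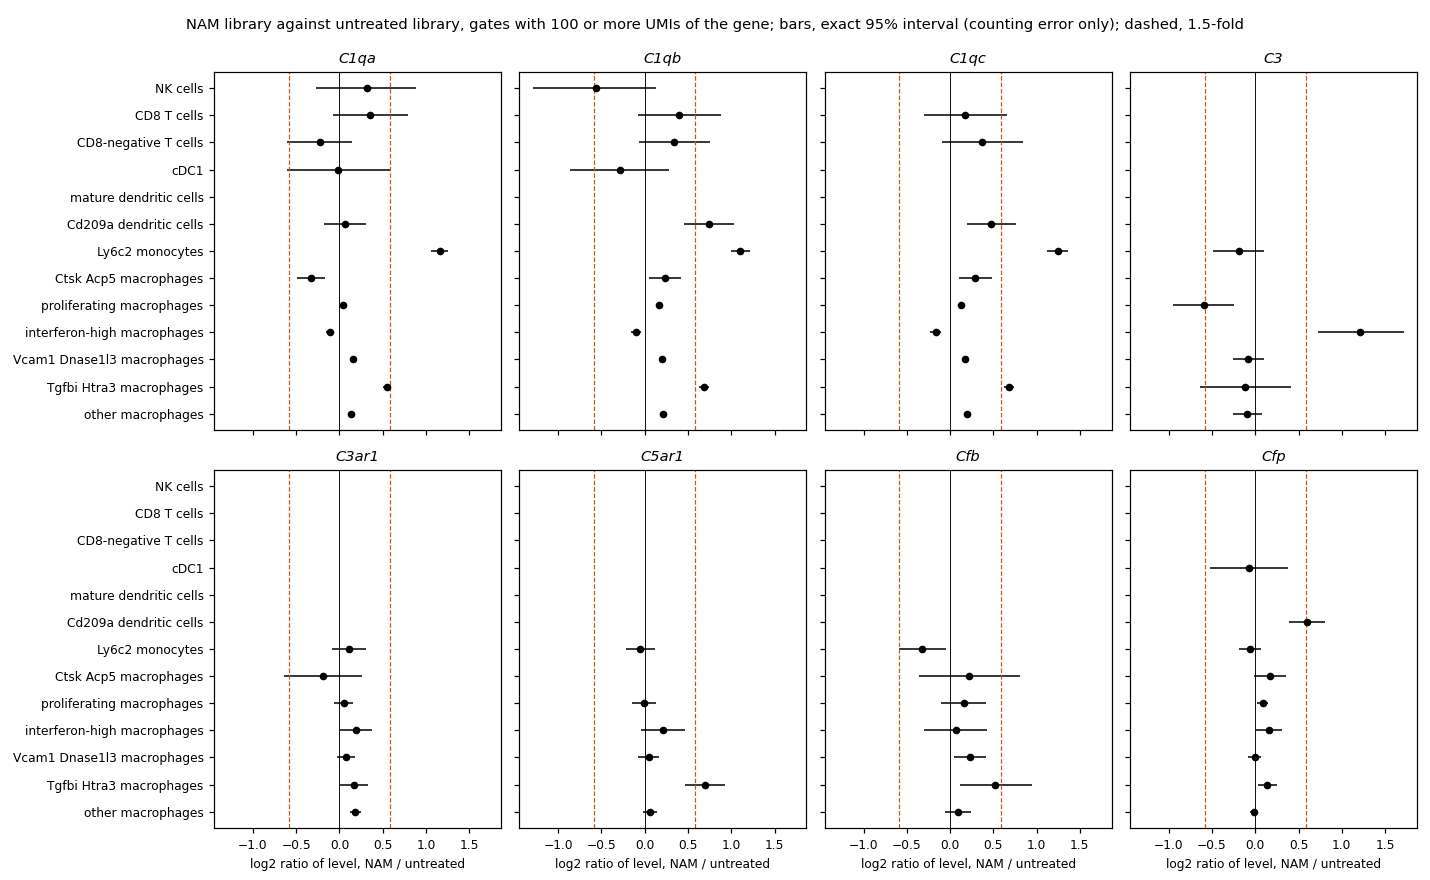
Log2 ratio of level, NAM over untreated library, for each gene and each gate with 100 or more of its UMIs, with exact 95% intervals for counting error. Dashed lines stand at 1.5-fold, which the C1q chains pass in Ly6c2 monocytes and C3 passes in opposite directions in interferon-high (1.21) and proliferating macrophages (-0.59).

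**Figure D4:**
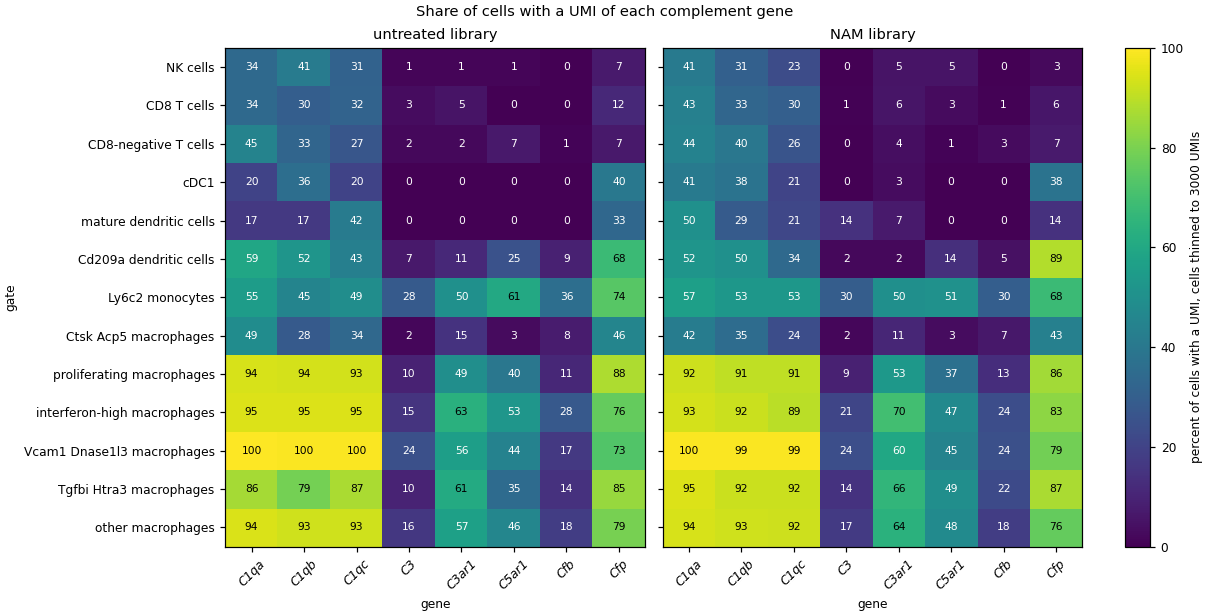
Percent of cells with at least 1 UMI of each gene, by gate and library, after every cell was thinned to 3000 UMIs. In T, NK, cDC1 and mature dendritic cells of the untreated library 16.7% to 44.6% have a UMI of a given C1q chain, while C3, Cfb and the receptors are at 0% to 6.93%. In the NAM library these ranges are 20.7% to 50% and 0% to 14.3%, the last for C3 in 14 mature dendritic cells.

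Across the 13 gates and both libraries (26 points of log2(CPM + 1), which share libraries and free RNA), the C1q chains followed each other most closely of 7380 genes, with Pearson's r of 0.987 to 0.995, and then Ccl12, a monocyte chemokine gene (0.970 to 0.985). C3 was most like Il1rn, the interleukin-1 receptor antagonist gene (0.941), Slc7a7 (0.933) and Gpr84 (0.924). Cfb was most like the cathepsin L gene Ctsl (0.958), Itgam (0.957) and Clec4a3 (0.954), and Cfp most like Pirb (0.948), Acer3 (0.948) and App (0.947). C3ar1 was most like Ms4a7 (0.965), Ctsl (0.957) and Cd300lb (0.954). C5ar1 was most like Fcgr1, a high-affinity IgG receptor gene (0.965).

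A list of 44 other complement genes gives the surroundings. Of these, 9 had 0 UMIs in all cells and 19 had 100 or more in macrophages. Among the 19, 0 were higher and 2 were lower past 1.5-fold in the NAM library, against 0.977% and 3.63% of all genes, and their median log2 ratio was -0.05. Those 2 were Fcna, which makes the lectin-pathway recognition protein ficolin A, with 1142 and 677 UMIs in macrophages (-0.88, -1.02 to -0.74), and Vsig4, a receptor for C3b, with 94 and 32 UMIs, or 3.79 and 1.18 CPM (-1.68, -2.31 to -1.09). By gate Vsig4 had 36 and 0 UMIs in proliferating and 41 and 11 in the remaining macrophages, but 13 and 17 in the Vcam1 Dnase1l3 gate. The integrin chains of complement receptor 3 were counted in the same cells. Itgam was at 172 and 167 CPM (-0.04) and Itgb2 at 144 and 176 (0.29, 0.22 to 0.35) in macrophages. In dendritic cells Itgb2 was at 162 and 263 CPM (0.70, 0.40 to 1.01), the 1 of 4 tested genes higher past 1.5-fold, where 4.42% of all genes were. In Ly6c2 monocytes 0 of 9 were past it in either direction.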

How the data were processed

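RNA was counted in 2 droplet libraries (10x Genomics, 3′ chemistry), untreated and NAM, with 3 mice pooled in each. The authors deposited raw UMI counts, a gene by cell table per library, made with Cell Ranger on mm10. The annotation used for counting is not given in the sources used here. All values were whole numbers, every cell had at least 1000 genes and 3000 UMIs, and no column belonged to another sample. The members and lists were chosen with earlier results of these data known, and the UMI thresholds of the gates were set after marker counts, but not complement counts, had been seen.

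Cells were gated in a fixed order by UMIs of the marker genes: at least 2 of the NK panel (Ncr1, Klre1, Klrb1c), 3 of the Cd3 genes, 3 of Xcr1 and Clec9a, 5 of Ccr7 and Fscn1, 2 of Cd209a or 5 of Ly6c2 with 3 of the myeloid panel (Csf1r, Adgre1, Cd68 and another gene), then macrophages with 4 of that panel. These were split by Ctsk and Acp5 (5 of each), cycling genes (5), Rsad2 and Ifit3 (8), Vcam1 and Dnase1l3 (3), and Tgfbi (8) with Htra3 (1). That other panel gene and 1 macrophage gate, whose cells count among all macrophages, are not reported here. Upper limits also applied: T and NK cells held at most 3 UMIs of the myeloid panel, and cDC1 and mature dendritic cells at most 8. The Cd209a gate had no such limit. Cells richer in that RNA are thus absent from the limited gates, which can lower their C1q. All gates but those of T and NK cells held at most 2 Cd3 UMIs. Doublets were not removed. UMIs were summed per library and gate and divided by the gate's total (CPM), with exact Poisson, conditional binomial (ratio) and Clopper-Pearson (share) intervals at 95%. Ratios needed 100 UMIs in the gate over both libraries, and "past 1.5-fold" refers to those. Cells were thinned to 3000 UMIs, which left out no cell, to compare shares. The likeness of genes used log2(CPM + 1) and genes with 500 or more UMIs.

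Genes named were the 9 members, the other complement genes past 1.5-fold in macrophages, Ly6c2 monocytes or dendritic cells, and the genes among the 3 most like each member. Itgam was taken by its Ensembl identifier, since its symbol stands on 2 rows, and was described beside Itgb2 after its values were seen. Alternatives were median-of-ratios scaling, higher marker thresholds, thinning before gating, a minimum of 20 UMIs, and leaving out the deepest 2.5% of cells or the 5 cells with most UMIs of a gene. A narrower monocyte gate and leaving out shared barcodes were added after the data were seen. Python 3.11.15, NumPy 2.4.6, SciPy 1.17.1 and matplotlib 3.10.9 were used, and the ratio and thinning steps were tested on simulated data.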

Additional observations from a re-analysis of the deposited data

Results flagged for a closer look

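C3 was past 1.5-fold in opposite directions in 2 macrophage gates under the same contrast. Its log2 ratio of NAM to untreated was 1.21 in interferon-high macrophages (54 and 101 UMIs) and -0.59 in proliferating macrophages (173 and 114 UMIs). With 1 library per group the difference between these ratios was not tested. Once the 5 cells richest in C3 were dropped from each library, the ratios were 0.49 (-0.16 to 1.15) and -0.50 (-0.90 to -0.11), both within 1.5-fold.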

How the results depend on the processing

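The monocyte and dendritic counts depended on the processing. In Ly6c2 monocytes the members higher past 1.5-fold were 3, and 0 with each cell thinned to 3000 UMIs before gating. In dendritic cells the 1 higher member became 0 with median-of-ratios scaling, thinning or without the deepest 2.5% of cells, and 2 with thresholds raised by 1 UMI. The lower members there, 0 in all, became 2 with thinning or a minimum of 20 UMIs and 3 without the deepest cells. In all macrophages both counts stayed at 0 under each alternative run. Of 47 log2 ratios whose interval left out 0, out of 84, 41 kept their direction and 6 turned under some alternative. C1qb in Cd209a dendritic cells turned to -0.97 without the deepest cells and -0.29 without its top 5 cells, and C1qc there to -1.85 and -1.04. Over all dendritic cells C1qb turned to -0.12 with thinning, -0.64 without the deepest cells and -0.15 without its top cells, C1qc to -0.85, -1.21 and -0.45, and Cfp to -0.10 with thinning. C1qb in Ctsk Acp5 macrophages turned to -0.11 by either omission of cells. The cause was not tested beyond the fewer cells and UMIs that these settings keep. Leaving out shared barcodes changed none of the counts. Median-of-ratios scaling moved all ratios of macrophages by 0.03. No paired analysis was possible because each group has 1 library. Members under 100 UMIs in a gate, Serping1 in every gate, were too sparse at this depth for a ratio.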
